A study of Mus musculus with 6 samples.

Results

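The genes described here encode 5 connected sets of guidance cues and their receptors: the ephrins and the Eph receptor tyrosine kinases, the Slits and the Robo receptors, and the netrins with the Unc5, Dcc and neogenin receptors. Members were the rows of the deposited normalised count table whose gene symbol was on a list of 37 names, 13 ligands and 24 receptors, and 37 of the 47729 genes in the table matched. RNA came from 2 established mouse mammary carcinoma cell lines, 4T1 and 4TO7, both traced by the labels to a spontaneous tumour of the BALB/c strain. Each line was grown in triplicate in DMEM with 10% FBS and without treatment, which gave 3 libraries per line; neither a genetic change nor the sex or age of the source animal is stated. Independence of the cultures is not stated in the labels, and the p-values therefore reflect variation among these libraries that could be technical alone. Whether either line is a single clone is not stated.

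As background, ephrins are membrane-bound ligands, the A class held by a lipid anchor and the B class by a transmembrane segment, and they bind Eph receptors on touching cells, with signals passing into both cells. A-class ligands bind mainly EphA receptors and B-class ligands mainly EphB receptors, with some crossing between classes. Slits and netrins are secreted; Slits repel cells through Robo receptors, and netrins attract or repel through Dcc, neogenin and Unc5 receptors. In the mammary gland these families are known for the sorting and adhesion of epithelial layers, and several Unc5 family members and Dcc are described as dependence receptors, which can promote cell death when their ligand is absent.

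The 6 libraries held 33605566 to 39072639 reads assigned to genes. The first principal component, with 89.9% of the variance, separated the lines, and the second, with 5.27%, placed replicate 2 of 4TO7 at 52.2, with the other two libraries of that line at -20.0 and -27.5. Of 6 mammary epithelial markers, 6 were higher in 4T1 by limma, beside 25.1% of all genes tested. Genes were tested if they reached a normalised count of 10 in at least 3 of the 6 libraries. Krt19 had a mean under 10 in 4TO7 and entered the test through 4T1 alone, so the filter fixed its direction. In 4TO7 Krt7, Krt19 and Epcam were at 13.6 ± 4.66, 1.29 ± 1.12 and 23.7 ± 9.25 normalised counts (mean ± SD, n = 3). Cdh1 was at 170 ± 44.6 in 4TO7 against 19351 ± 2121 in 4T1, and Krt8 and Krt18 had 21578 ± 3811 and 13535 ± 4763 in 4TO7. Summed fibroblast and pericyte markers ranged from 590 to 1372 in 4T1 and from 1943 to 8269 in 4TO7, with the lowest 4TO7 value in replicate 2. The 3 of these markers that were tested were called higher in 4TO7 by limma, beside 23.9% of all genes tested. They were Pdgfra (897 ± 399 against 5286 ± 3123), Pdgfrb (6.52 ± 5.24 against 25.1 ± 13.8) and Rgs5 (1.01 ± 1.75 against 447 ± 271). Pdgfrb and Rgs5 had a mean under 10 in 4T1 and entered the test through 4TO7 alone, which fixed the direction of their difference. The lines overlapped for Pdgfrb, with 12.55 in 4T1 replicate 3 and 10.48 in 4TO7 replicate 2. Of the markers in this list not tested, Col1a1 was higher in 4T1 (10.2 ± 2.04 against 4.19 ± 2.83) and Dcn in 4TO7 (1.97 ± 0.951 against 15.3 ± 11.9). Col1a2 had 3 reads in 4T1 and 0 in 4TO7, and Lum was at 0 in all 6 libraries. Summed endothelial markers ranged from 28.9 to 71.6 in 4T1 and from 81.4 to 111 in 4TO7. Of these 7 markers Tie1 alone was tested, and it was not called (38.2 ± 19.3 against 55.8 ± 12.1, limma adjusted p = 0.243). Vwf reached 53.8 in 4TO7 replicate 3, and Cdh5 had 6.32 ± 3.14 in 4T1 and 2.02 ± 1.1 in 4TO7. Haematopoietic markers summed to 251 to 470 in 4T1 and 93.6 to 158 in 4TO7, with Cd3e and Adgre1 at 0. Cd68 and Csf1r were called higher in 4T1 (2.75-fold and 9.21-fold), beside 25.1% of all genes tested. Csf1r had a mean under 10 in 4TO7 and entered the test through 4T1 alone, which fixed its direction. Neural markers summed to 1661 to 2372 in 4T1 and 1855 to 3017 in 4TO7, with Mbp called higher in 4T1 (1.78-fold), Map2 in 4TO7 (2.15-fold) and Rbfox3 at 0. The part of these markers in the results that follow was not tested. In bulk RNA, fewer cells of a type and less RNA per cell cannot be told apart.

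Transcripts of 22 of the 37 genes reached a normalised count of 10 in at least 3 of the 6 libraries and entered the test. Higher levels were called in 4T1 for 10 of them and in 4TO7 for 5, and 7 failed to pass (limma, adjusted p under 0.05 over all 14276 genes tested). Over all genes tested 49% passed, 25.1% higher in 4T1 and 23.9% higher in 4TO7. The lines did not overlap in 16 of the 22, beside 58.4% of all genes tested. Epha4, Epha8 and Slit2 had a mean under 10 in 4TO7 and entered the test through 4T1 alone, so the filter fixed the direction of their difference. Among the 19 other genes 7 were called for 4T1 and 5 for 4TO7, beside 45.2% (23.2% for 4T1 and 22% for 4TO7) of the 12796 genes with a mean of at least 10 in both lines. Count tests on the recovered reads also gave 10 and 5, with edgeR beside 48.9% of all genes and with DESeq2 beside 51.2%. The median log2 fold change of the 22, 4T1 minus 4TO7, was 0.55, and that of all genes tested 0.03. The 22 include Epha4, Epha8 and Slit2, which had the 3 largest log2 fold changes and are among the 16 without overlap. The filter therefore has a part in this median and in that count. Fold changes given as log2 are on the log2(normalised count + 1) scale with their standard error, which understates the change of low genes, and a plain fold divides one mean of 3 libraries by the other.

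**Figure D1:**
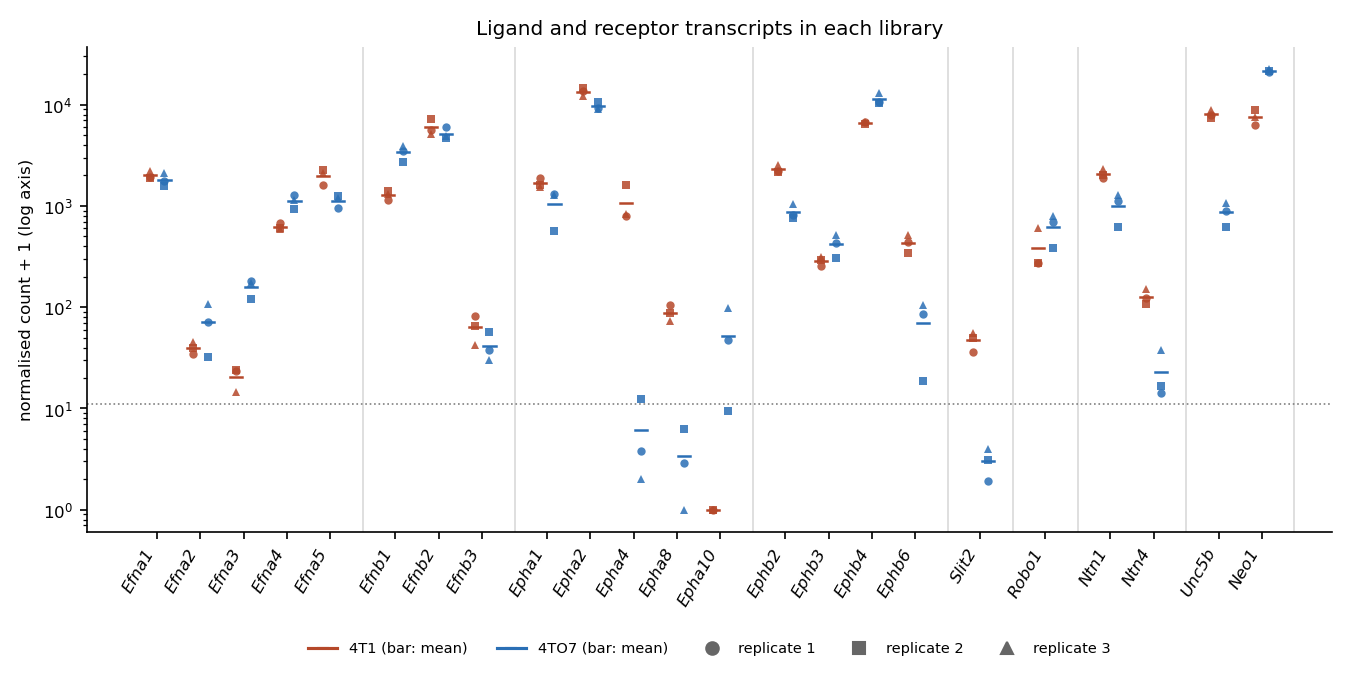
Normalised count plus 1 on a log axis in each of the 6 libraries for the 22 genes tested and Epha10, grouped by role with grey dividers; points are libraries, bars are line means and the dotted line marks a normalised count of 10. Epha4, Epha8 and Slit2 fall below the line in 4TO7 on average, Epha10 has no reads in 4T1, and Neo1 and Unc5b separate in opposite directions.

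The other 15 genes were read rarely or not at all. No read was assigned in any library to 6 of them, the receptors Epha7, Ephb1, Robo4, Unc5a and Unc5c and the ligand Slit3; a count of 0 allows up to 3 reads per line, or 0.99 normalised counts per library, which covers counting error only. Epha3, Epha5, Epha6, Slit1, Robo2, Robo3 and Dcc had between 1 and 3 reads over all 6 libraries, and Dcc, the classical attractive netrin receptor, had 1. Unc5d had 7 reads in 4T1 and 0 in 4TO7; with no low-value filter it was called higher in 4T1 (log2 fold change 1.71 ± 0.44, limma adjusted p = 0.00845), a call that rests on those 7 reads. Epha10 was the remaining gene and is described with the receptors.

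Among the ephrin-A ligands, Efna3 and Efna4 were higher in 4TO7, Efna5 was higher in 4T1, and Efna1 and Efna2 did not pass. Efna3 had 22.2, 22.9 and 13.5 normalised counts in the 4T1 libraries and 181.5, 120.5 and 172 in those of 4TO7, each in replicate order. The lines did not overlap, and 4TO7 replicate 2 was the lowest of its line. The mean was 8.09-fold higher in 4TO7 (log2 fold change -2.97 ± 0.31, limma adjusted p = 0.000106). Efna4 had 673, 610 and 592 in 4T1 against 1269, 942 and 1143 in 4TO7, again without overlap. The difference was 1.79-fold (log2 fold change -0.83 ± 0.16, limma adjusted p = 0.00374). Efna5, with 1603, 2273 and 2105 in 4T1 and 952, 1241 and 1195 in 4TO7, was 1.76-fold higher in 4T1 (log2 fold change 0.81 ± 0.18, limma adjusted p = 0.00675).

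Efna1, a ligand first found as a gene induced by tumour necrosis factor, had 2002 ± 166 in 4T1 and 1818 ± 256 in 4TO7 (limma adjusted p = 0.456). The values of its libraries overlapped. Efna2 had 38.9 ± 5.56 and 69.7 ± 37.5 (limma adjusted p = 0.225), with 4TO7 replicate 2, at 31.4, below every 4T1 library. Without that library Efna2 was called higher in 4TO7 (log2 fold change -1.15, limma adjusted p = 0.00852). Among the members, Efna3 and Efna4 lie next to each other with Efna1 on mouse chromosome 3 (GRCm38). Efna1 is at 89271733 to 89281142, Efna3 at 89313899 to 89322965 and Efna4 at 89333390 to 89338028, all on the minus strand. The gap is 32.8 kb between Efna1 and Efna3 and 10.4 kb between Efna3 and Efna4. Genes off the list that may lie in these gaps were not looked for. The 2 members here that were higher in 4TO7 thus had a neighbouring member that did not pass. An annotated antisense transcript covers 14.1% of the exon bases of Efna3 and another 10.5% of those of Efna4. Strand use in counting is not stated, so reads of such pairs cannot be told apart. The antisense genes had 4.96 and 21.4 (Gm15998) and 5.61 and 22.7 (4731419I09Rik) normalised counts in 4T1 and 4TO7, and their part in the result was not tested.

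The sequence upstream of a listed start of Efna3 and of Efna4 is shown because these neighbouring members were both higher in 4TO7. Each run is the 250 bases before a RefSeq start (GRCm38.p6, 5′ to 3′ on the gene's strand), in a window that holds no annotated exon base of GENCODE M21; for Efna3, which has 2 listed starts, it is the inner one, so that the window lies inside the gene, since 26 bases of the outer window are annotated exon. Capitals mark GGGCGG or its reverse complement CCGCCC, the GC box. Efna3 is from chr3:89321769-89322018 and Efna4 from chr3:89338029-89338278, both on the minus strand.
Efna3: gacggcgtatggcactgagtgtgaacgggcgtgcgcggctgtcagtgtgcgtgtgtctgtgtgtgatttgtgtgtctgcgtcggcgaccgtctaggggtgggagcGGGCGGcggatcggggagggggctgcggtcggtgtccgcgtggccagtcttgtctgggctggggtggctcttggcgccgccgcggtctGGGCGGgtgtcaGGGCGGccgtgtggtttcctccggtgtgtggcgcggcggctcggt
Efna4: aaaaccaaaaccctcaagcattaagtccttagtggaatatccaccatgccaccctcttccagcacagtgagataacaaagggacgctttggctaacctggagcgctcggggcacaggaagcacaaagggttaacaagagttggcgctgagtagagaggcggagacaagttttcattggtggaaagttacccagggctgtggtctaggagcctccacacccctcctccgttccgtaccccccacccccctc
The Efna3 window holds 3 GC boxes and 31 CG pairs and the Efna4 window 0 and 7. GGGCGG on either strand stands in 32.7% of the 32851 RefSeq windows of this length and in 42.6% of the 21262 of protein-coding genes. A match is a description of the letters alone.

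Among the ephrin-B ligands, Efnb1 was higher in 4TO7, and Efnb2 and Efnb3 did not pass. Efnb1, an X-linked gene whose loss disturbs boundary formation in the skull (chromosome X, 99136130 to 99148991), had 1157, 1405 and 1297 normalised counts in 4T1 and 3495, 2716 and 3916 in 4TO7. No 4TO7 library came near the 4T1 range. The mean was 2.62-fold higher in 4TO7 (log2 fold change -1.38 ± 0.17, limma adjusted p = 0.000308). Efnb2, the ligand best known for marking arteries, had 5978 ± 1096 in 4T1 and 5178 ± 677 in 4TO7 with overlapping libraries (limma adjusted p = 0.356). Efnb3, a ligand of the nervous system midline, was low in both, at 62.3 ± 19.7 and 40.3 ± 13.7 (limma adjusted p = 0.181). Divided by exon length, Efnb2 made up 68.8% ± 2.70 of the ephrin-B sum in 4T1 and 43.4% ± 4.40 in 4TO7, while Efnb1 made up 29.7% ± 2.94 and 55.8% ± 4.65. The order of the 2 ligands was thus reversed between the lines in this description, which was not tested, and it held in all 6 libraries.

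Of the EphA receptors, 4 of 9 were tested, and 3 were higher in 4T1, beside 25.1% of all genes tested. Epha4 and Epha8 entered the test through 4T1 alone; of the other 2, Epha2 was called and Epha1 was not. Epha4, a receptor with wide ligand range across both classes (chromosome 1, 77367185 to 77515088), had 799, 1614 and 826 normalised counts in 4T1. In 4TO7 it had 2.81, 11.5 and 1.00, or 15 reads in all. The largest 4TO7 value was in replicate 2 and still lay far below each 4T1 library. The ratio of means was 211 (568 without 4TO7 replicate 2), with a log2 fold change of 7.81 ± 0.63 and limma adjusted p = 2.43e-05. Epha8, a receptor mostly studied in the developing midbrain, had 104, 86.7 and 72.4 in 4T1 against 1.87, 5.24 and 0 in 4TO7. Its ratio was 37 (93.7 without 4TO7 replicate 2; log2 fold change 5.07 ± 0.61, limma adjusted p = 0.000259).

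Epha2, an epithelial receptor much studied in breast carcinoma (chromosome 4, 141301240 to 141329384), was the most abundant Eph transcript per exon length in 4T1. It had 13645, 14628 and 12144 normalised counts in 4T1 and 9187, 10613 and 8986 in 4TO7. The difference was small, 1.40-fold, without overlap between the lines (log2 fold change 0.49 ± 0.13, limma adjusted p = 0.0161). Epha2 no longer passed when 4T1 replicate 2 (limma adjusted p = 0.0578), replicate 1 of 4TO7 (0.0687) or its replicate 3 (0.0666) was left out. Epha1, the first Eph receptor to be cloned, had 1881, 1592 and 1542 in 4T1 and 1319, 564 and 1276 in 4TO7. The lines did not overlap, with 4TO7 replicate 2 the lowest library, and Epha1 did not pass (log2 fold change 0.76 ± 0.31, limma adjusted p = 0.0737). It passed without 4TO7 replicate 1 (log2 fold change 0.97, limma adjusted p = 0.0493) and did not pass without 4TO7 replicate 2 (log2 fold change 0.36, limma adjusted p = 0.0695). Exons of Zyx on the other strand, a gene with 8540 normalised counts in 4T1 and 13500 in 4TO7, cover 236 (6.01%) of the exon bases of Epha1. The level of Zyx is above that of Epha1 in both lines, and how many reads counted for Epha1 came from the shared bases was not tested, so the values of Epha1 are uncertain.

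Epha10, which encodes a receptor with an inactive kinase domain, was read in 4TO7 and in no 4T1 library. It had 46.8, 8.38 and 96.5 normalised counts in 4TO7 and 0 in 4T1, at least 51.1-fold higher against a floor of 3 reads over the 4T1 libraries (27.9-fold without 4TO7 replicate 3). With 4TO7 replicate 2 under 10 it was not among the genes tested. With no low-value filter its log2 fold change was -5.14 ± 0.71 (limma adjusted p = 0.000128), and 31.4% of the 25124 genes then tested were called. The authors' deposited table gives it 8.12 ± 1.43 as 4TO7 over 4T1, with an adjusted p-value of 1.2e-07.

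Of the EphB receptors, 4 of 5 were tested. Ephb2 and Ephb6 were higher in 4T1, Ephb4 was higher in 4TO7 and Ephb3 did not pass. Ephb2, a receptor known for sorting cells in the intestinal crypt, had 2193, 2162 and 2535 normalised counts in 4T1 and 818, 756 and 1052 in 4TO7. These ranges lay well apart, and the mean was 2.62-fold higher in 4T1 (log2 fold change 1.40 ± 0.17, limma adjusted p = 0.00025). Ephb6, which has no active kinase, had 441, 345 and 513 in 4T1 and 85.1, 17.8 and 104 in 4TO7. Replicate 2 was again the lowest 4TO7 library, here the one farthest from 4T1. The mean was 6.29-fold higher in 4T1 (log2 fold change 2.95 ± 0.59, limma adjusted p = 0.00385).

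Ephb4, the partner of Efnb2 that marks veins and is also expressed in mammary epithelium (chromosome 5, 137350109 to 137378669), had 6769, 6389 and 6780 normalised counts in 4T1. In 4TO7 it had 10573, 10391 and 12914. The 2 lines did not overlap, with a mean 1.70-fold higher in 4TO7 (log2 fold change -0.76 ± 0.13, limma adjusted p = 0.00201). Ephb3 had 287 ± 28.9 in 4T1 and 418 ± 109 in 4TO7, with 4TO7 replicate 2, at 302, inside the 4T1 range (limma adjusted p = 0.106). Without that library Ephb3 was called higher in 4TO7 (log2 fold change -0.73, limma adjusted p = 0.0112). Per exon length Ephb4 exceeded Ephb2 by 7.89-fold ± 0.571 in 4T1 and by 35.3-fold ± 2.01 in 4TO7, as a ratio taken within each library. That ratio ranged from 7.27 to 8.39 in 4T1 and from 33.4 to 37.4 in 4TO7. Its size depends on the exon lengths used, 4.64 kb for Ephb4 and 12.61 kb for Ephb2. The pair was chosen after its values were seen, and the ratio was not tested.

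Ephb2 and Epha8 are next to each other among the members on chromosome 4, at 136647539 to 136835988 and 136929419 to 136956816. The gap between them is 93.4 kb, and genes off the list that may lie in it were not looked for. Both were higher in 4T1. Their upstream windows are shown for that reason, with the same marking of GC boxes, from chr4:136836013-136836262 (Ephb2) and chr4:136956817-136957066 (Epha8), both on the minus strand.
Ephb2: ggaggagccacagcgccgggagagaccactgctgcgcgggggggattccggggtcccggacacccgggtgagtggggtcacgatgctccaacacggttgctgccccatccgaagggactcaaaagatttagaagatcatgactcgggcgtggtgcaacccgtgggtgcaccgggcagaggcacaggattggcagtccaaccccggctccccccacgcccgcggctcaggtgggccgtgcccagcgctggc
Epha8: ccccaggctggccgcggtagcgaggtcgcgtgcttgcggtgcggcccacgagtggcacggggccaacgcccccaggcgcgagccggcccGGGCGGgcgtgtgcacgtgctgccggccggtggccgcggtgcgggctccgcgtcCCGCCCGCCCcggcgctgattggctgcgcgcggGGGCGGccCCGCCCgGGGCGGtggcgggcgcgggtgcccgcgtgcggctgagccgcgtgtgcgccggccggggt
The window of Epha8 holds 6 GC boxes and 46 CG pairs, the most CG pairs among the 37 member windows (32 genes matched, some with several starts), and that of Ephb2 0 and 20. Over the 37 windows 26 hold a GC box, beside 42.6% of the windows of protein-coding genes. The median is 18 CG pairs, against 10 over protein-coding genes. A gene with several starts is counted once per window. CG-rich windows occurred both in genes read in both lines and in genes with 0 reads, such as Slit3 with 35 CG pairs and Unc5a with 25.

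**Figure D2:**
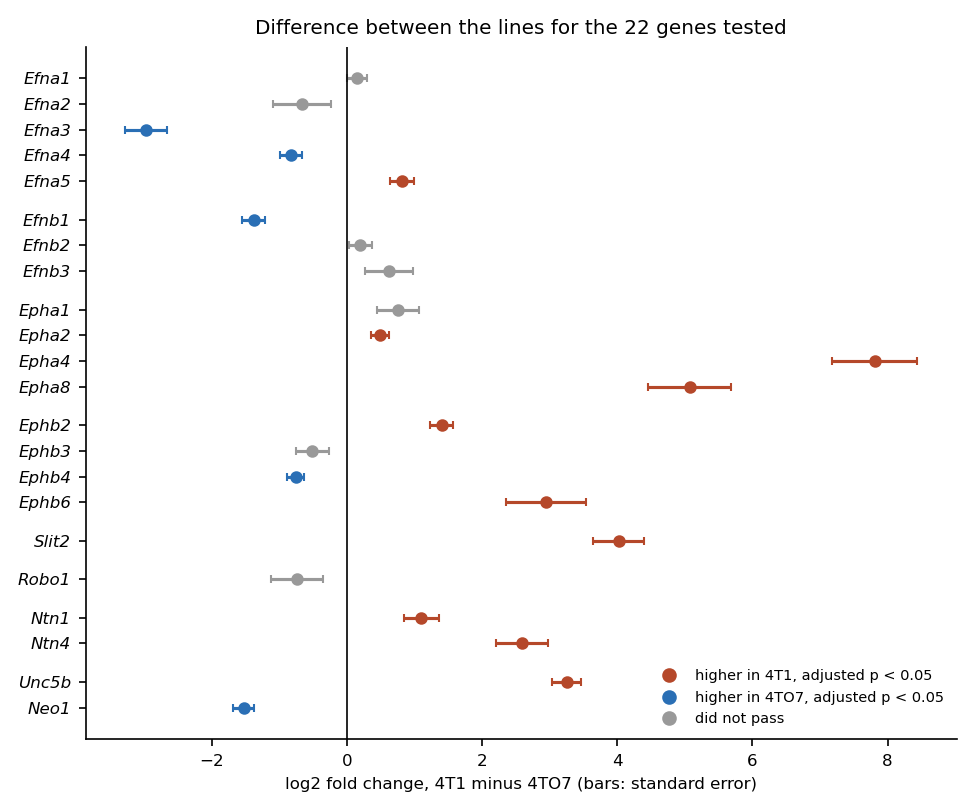
Log2 fold change of 4T1 minus 4TO7 with its standard error for each of the 22 genes tested, ordered by role and coloured by the limma call. EphA receptors and netrin ligands that passed lie to the right (higher in 4T1), and Efna3, Efna4, Efnb1, Ephb4 and Neo1 lie to the left (higher in 4TO7).

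Summed over each class per exon kb, EphA receptor transcripts came to 3461 ± 327 in 4T1 and 2329 ± 80.4 in 4TO7, and EphB receptor transcripts to 1772 ± 82.1 and 2584 ± 338. The EphA sum was made up mainly of Epha2 (83.3% ± 0.321 and 88.0% ± 5.10) and the EphB sum mainly of Ephb4 (80.8% ± 1.45 and 94.2% ± 0.943). In every 4T1 library the EphA sum was the larger. In 4TO7 the EphB sum was the larger in replicates 1 and 3 (2431 against 2309 and 2972 against 2261), and in replicate 2 the order was the other way (2350 against 2418). Ephrin-A ligands summed to 2005 ± 105 and 2070 ± 225, a difference inside the spread of 4TO7, and ephrin-B ligands to 1264 ± 188 and 1746 ± 222. The largest ephrin-B sum in 4T1, 1480 in replicate 2, lay just under the smallest in 4TO7, 1491 in replicate 2. These sums describe the classes and carry no test.

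**Figure D3:**
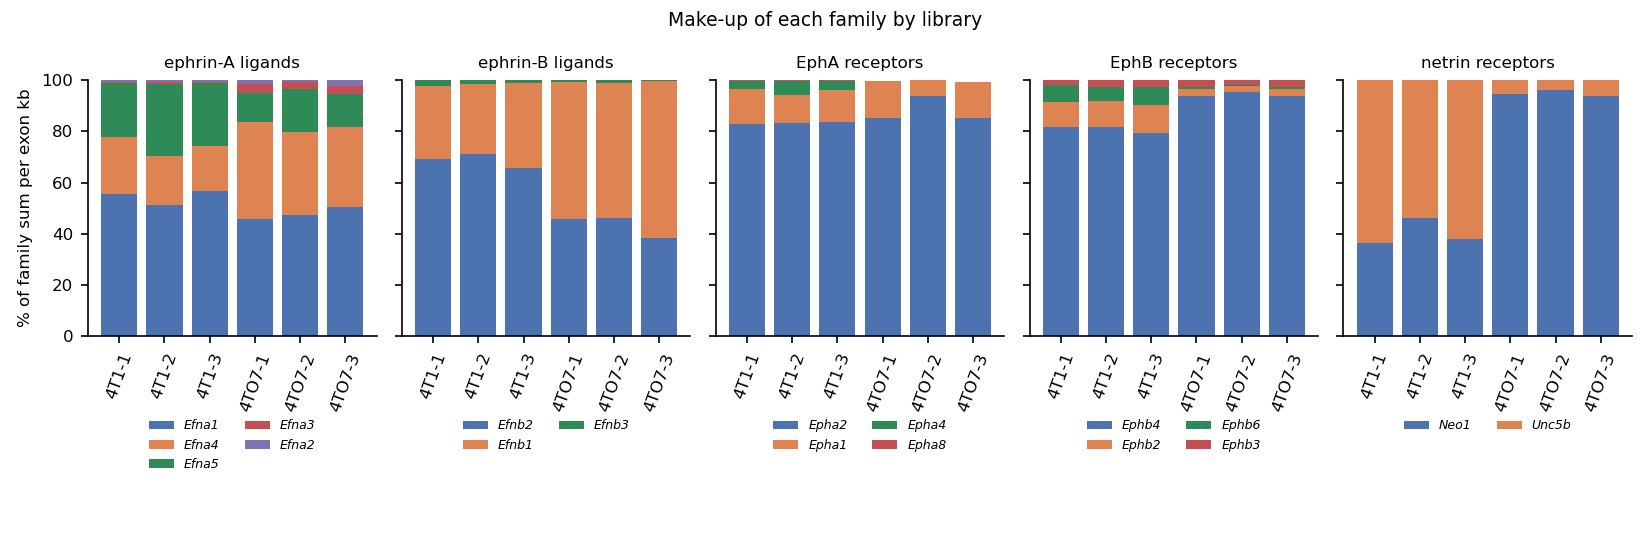
Share of each gene in the sum of its family, as normalised counts per exon kb, in each library; genes with a mean share under 0.5% in both lines are not drawn. Ephb4 and Epha2 dominate their families in all 6 libraries, and Neo1 makes up 40.2% of netrin receptor transcripts in 4T1 and 94.7% in 4TO7.

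Of the Slit ligands Slit2 alone was tested, and of the Robo receptors Robo1 alone. Slit2, a secreted repellent often silenced in carcinomas, had 35.3, 48.8 and 55 normalised counts in 4T1 and 0.936, 2.10 and 2.99 in 4TO7, or 6 reads. The 4T1 level was itself low, 1.82 ± 0.396 per exon kb, and 23.1-fold above that of 4TO7 (log2 fold change 4.02 ± 0.38, limma adjusted p = 5.91e-05). Robo1, the receptor of Slit2 (chromosome 16, 72308306 to 73046095), had 275, 271 and 604 in 4T1 and 698, 379 and 799 in 4TO7. The third 4T1 library lay inside the 4TO7 range, and Robo1 did not pass (log2 fold change -0.74 ± 0.38, limma adjusted p = 0.141). It was called higher in 4TO7 without 4T1 replicate 3 (log2 fold change -1.12, limma adjusted p = 0.0314) or without 4TO7 replicate 2 (log2 fold change -1.07, limma adjusted p = 0.024). Robo1 made up 99.6% of the Robo sum per exon kb in 4T1 and 99.8% in 4TO7.

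Both netrin ligands tested were higher in 4T1, beside 25.1% of all genes tested. Ntn1, the founding netrin (chromosome 11, 68209364 to 68400823), had 1883, 2008 and 2300 normalised counts in 4T1 and 1124, 614 and 1277 in 4TO7. The lines did not overlap, and 4TO7 replicate 2 was the lowest library. The mean was 2.05-fold higher in 4T1 (log2 fold change 1.10 ± 0.26, limma adjusted p = 0.00927). Ntn4, a basement membrane netrin that binds laminin, had 121, 106 and 149.6 against 13.1, 15.7 and 36.8. It was 5.73-fold higher in 4T1 (8.71-fold without 4TO7 replicate 3; log2 fold change 2.59 ± 0.39, limma adjusted p = 0.001).

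The 2 netrin receptors that were tested differed in opposite directions. Unc5b, a dependence receptor for netrin (chromosome 10, 60762593 to 60831581), had 7864, 7432 and 8799 normalised counts in 4T1 and 897, 617 and 1078 in 4TO7. No library of one line came near the other line. The mean was 9.29-fold higher in 4T1 (log2 fold change 3.25 ± 0.21, limma adjusted p = 6.49e-06). Neo1, neogenin, a relative of Dcc that binds netrins and the repulsive guidance molecules (chromosome 9, 58874687 to 59036441), had 6296, 8920 and 7480 in 4T1 and 21013, 21282 and 22493 in 4TO7. Its 3 4TO7 libraries were close together, and the mean was 2.85-fold higher there (log2 fold change -1.53 ± 0.15, limma adjusted p = 8.09e-05).

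Per exon length, Neo1 was below Unc5b in each 4T1 library, with ratios of 0.575, 0.862 and 0.610. In 4TO7 the ratios were 16.8, 24.8 and 15. The pair was chosen after its values were seen and the ratio was not tested. The summed level of the netrin receptors was 2152 ± 152 per exon kb in 4T1 and 2616 ± 119 in 4TO7.

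The windows upstream of Unc5b (chr10:60831582-60831831) and Neo1 (chr9:59036442-59036691), both on the minus strand, are shown because these receptors differed in opposite directions.
Unc5b: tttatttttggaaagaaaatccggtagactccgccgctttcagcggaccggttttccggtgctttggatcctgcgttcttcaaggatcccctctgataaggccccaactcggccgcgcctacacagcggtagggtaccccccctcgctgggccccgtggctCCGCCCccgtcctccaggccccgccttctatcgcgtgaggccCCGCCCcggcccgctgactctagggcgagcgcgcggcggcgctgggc
Neo1: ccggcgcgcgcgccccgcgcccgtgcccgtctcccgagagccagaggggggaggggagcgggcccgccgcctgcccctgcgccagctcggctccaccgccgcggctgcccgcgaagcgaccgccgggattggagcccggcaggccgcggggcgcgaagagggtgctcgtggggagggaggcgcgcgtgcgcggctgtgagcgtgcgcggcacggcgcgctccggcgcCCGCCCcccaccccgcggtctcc
Unc5b has 2 GC boxes and 27 CG pairs in its window and Neo1 has 1 and 45, and the GC content is 66.8% and 83.2%. Neither window holds TATAAA on either strand, which 12.4% of all RefSeq windows and 2 of the 37 member windows do. CAGGTG or its reverse complement CACCTG, an E-box bound by Snail and Zeb factors, stands in 5 of the 37 member windows and in 17.2% of all; CAGCTG, which shares no overlap with it, also stands in 5 and in 13.0%.

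Ordered by level per exon kb, the receptors of 4T1 ran from Epha2 (2882 ± 268) through Ephb4 (1432 ± 48.0), Unc5b (1283 ± 112), Neo1 (868 ± 151) and Epha1 (426 ± 46.5) to Ephb2 (182 ± 16.4), Epha4 (134 ± 57.5) and Ephb6 (115 ± 22.3). Of these neighbours, Epha4 and Ephb6 lay within the SD of Epha4, and Ephb2 and Epha4 within the SD of Epha4 as well. In 4TO7 the order was Neo1 (2478 ± 90.4), Ephb4 (2434 ± 303), Epha2 (2053 ± 190), Epha1 (268 ± 108), Unc5b (138 ± 37.1), Ephb2 (69.4 ± 12.4) and Ephb3 (62.9 ± 16.4). Neo1 and Ephb4 there, and likewise Ephb2 and Ephb3, lay within the SD of either gene. Among ligands Efna1 stood highest in both lines (1094 ± 90.9 and 993 ± 140), followed by Efnb2 in 4T1 (872 ± 160) and by Efnb1 in 4TO7 (978 ± 176), which lay within the SD of Efna1. Exon length here is that of all annotated exons of a gene together, so a gene with long rarely used exons is placed too low.

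Replicates 2 and 3 of 4TO7 departed to opposite sides for these genes. Replicate 2 was the lowest of the 3 4TO7 libraries in 14 of the 22 and the highest in 5. Its median log2 difference from the mean of the other 2 libraries of its line was -0.32, against -0.01 over all genes tested. Replicate 3 was the highest in 13 and the lowest in 4, with a median of 0.33, against 0.01 over all genes tested. The median absolute difference was 0.51 in replicate 2 and 0.53 in replicate 3. For the other 4 libraries the median lay between -0.08 and 0.12. Departures of 4TO7 replicate 2 had no single direction relative to 4T1: Epha1, Ephb6, Ntn1 and Unc5b were lower there than in any other library, while Epha4 and Epha8 were higher there than in the other 4TO7 libraries. Pdgfra, a fibroblast marker, had 1706 normalised counts in that library against 6700 and 7452 in the others of its line, and the part of whatever sets this library apart in these results was not tested. Leaving it out gave 10 of the 22 called for 4T1 and 8 for 4TO7, beside 56.5% of all genes tested called.

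**Figure D4:**
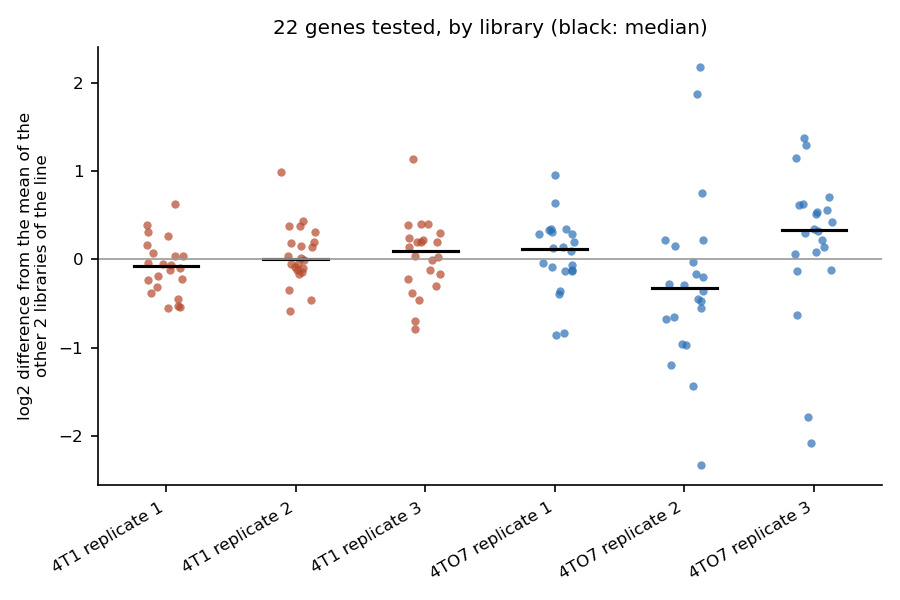
Log2 difference of each of the 22 genes tested from the mean of the other 2 libraries of the same line, by library, with the median as a black bar. The median is lowest in 4TO7 replicate 2, at -0.32, and highest in 4TO7 replicate 3, at 0.33.

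The proteins that act with these receptors were described from a list of 79 effectors and partners, of which 78 were found and 62 could be tested. The calls numbered 18 in each direction, with 26 not passing, beside 49% of all genes called; the median log2 fold change was -0.04. The split depended on the scaling, with 15 for 4T1 and 21 for 4TO7 at equal totals and 16 and 20 with quantile normalisation. Leaving out 5 genes that had a mean under 10 in one line gave 13 and 18 of 57, beside 45.2%.

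Among 38 effectors of Eph and ephrin signalling, 12 were higher in each line, beside 25.1% and 23.9% of all genes tested. Grb7, Arhgef16 and Chn2 entered the test through 4T1 alone, which fixed the direction of their difference. Without them the calls were 9 for 4T1 and 12 for 4TO7 of 35. Grb7, an adaptor that binds Eph receptors and Erbb2, had 1773 ± 226 normalised counts in 4T1 and 2.87 ± 2.81 in 4TO7. Arhgef16 and Chn2, an exchange factor and a Rac GTPase-activating protein, were also higher in 4T1, Arhgef16 by 111-fold and Chn2, with 0 reads in 4TO7, by at least 21.7-fold. In the other direction, Arhgef15, an exchange factor bound by Epha4, had 76.0 ± 16.2 in 4T1 and 874 ± 238 in 4TO7 (log2 fold change -3.49 ± 0.26, limma adjusted p = 1.66e-05). Fyn, a Src family kinase used by ephrins, was 2.39-fold higher in 4TO7. Arhgef19 was 4.19-fold higher in 4TO7, with 2809, 615 and 2739 in its 3 libraries, and it failed to pass when 4T1 replicate 1 (limma adjusted p = 0.0847) or 2 (0.0854), or 4TO7 replicate 1 (0.075) or 3 (0.0713), was left out.

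Among 18 effectors of Slit, Robo and netrin signalling, calls numbered 5 for 4T1 and 3 for 4TO7, or 44.4% beside 49% of all genes tested. Ablim1 and Dapk1 entered the test through 4T1 alone, which fixed the direction of their difference. Without them the calls were 3 and 3 of 16. Ablim1, an actin-binding protein linked to netrin responses, had 3081 ± 715 in 4T1 and 1.66 ± 1.15 in 4TO7, or 5 reads. Dapk1, the death-associated kinase that Unc5 receptors engage, had 271, 305 and 340 in 4T1 and 2.81, 2.10 and 3.98 in 4TO7. The ratio was 103, in the same direction as Unc5b, and this match was not tested. Srgap3, a Slit-Robo GTPase-activating protein, was 9.17-fold higher in 4T1. Enah, an actin regulator downstream of Robo and netrin receptors, was 2.39-fold higher in 4TO7. Maged1, which binds Unc5 receptors, and Elmo2, which acts with Dock1, were 1.64-fold and 1.36-fold higher there. Maged1 failed to pass when 4T1 replicate 1 (limma adjusted p = 0.0892) or 3 (0.0579), or 4TO7 replicate 1 (0.0718) or 3 (0.0851), was left out, and Elmo2 without any single library other than 4T1 replicate 1 (limma adjusted p = 0.0516 to 0.0877).

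Among the partners, 6 of 15 were tested, and 3 were higher in 4TO7 and 1 in 4T1, beside 23.9% and 25.1% of all genes tested. Rgma, a ligand of neogenin, had 429, 385 and 413 normalised counts in 4T1 and 5006, 3595 and 5516 in 4TO7, 11.5-fold higher in the line with more Neo1 (log2 fold change -3.50 ± 0.18, limma adjusted p = 1.95e-06). Rgmb, its relative, was 1.32-fold higher in 4TO7 (limma adjusted p = 0.0442), a call lost without any single library (limma adjusted p = 0.068 to 0.149). Flrt3, a ligand of Unc5b and other Unc5 receptors, had 566, 636 and 678 in 4T1 and 2781, 3129 and 3087 in 4TO7, 4.79-fold higher in the line with less Unc5b (log2 fold change -2.26 ± 0.14, limma adjusted p = 5.29e-06). Gpc1, a heparan sulphate proteoglycan that binds Slits, was 2.70-fold higher in 4T1, as Slit2 was. These comparisons of direction with Neo1, Unc5b and Slit2 were made after the values were seen and were not tested.

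**Figure D5:**
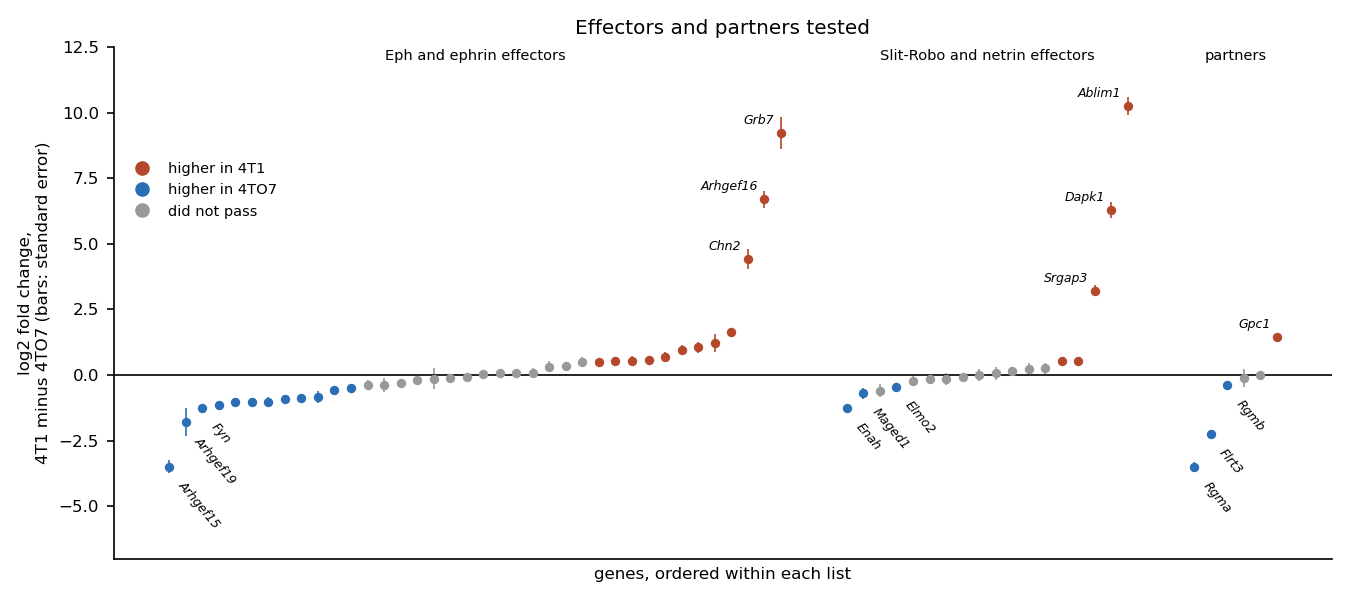
Log2 fold change of 4T1 minus 4TO7 with its standard error for the 62 effectors and partners tested, ordered within each of the 3 lists; the 3 largest called per direction and list are named. Ablim1, Grb7, Arhgef16 and Dapk1 stand highest toward 4T1, and Rgma and Arhgef15 lowest toward 4TO7.

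The authors' own comparison, in the deposited table, gives an adjusted p-value for 24 of the 37 genes and puts 16 of them under 0.05, 10 higher in 4T1 and 6 higher in 4TO7, beside 39.1% of the genes with such a value. For the 22 genes tested in both, the call was the same in 22. The sixth gene higher in 4TO7 in that table is Epha10.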

How the data were processed

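RNA sequencing of 3 libraries each of 4T1 and 4TO7 was analysed from 1 deposited table of 47729 genes. STAR 2.5, featureCounts 1.5, and DESeq2 (version not given) on build GRCm38 appear, per the submitters' processing notes; annotation release and strand use are not given in the sources used here. For each of the 6 samples the authors deposited a normalised signal, which by its values is a gene count divided by a library size factor (0.954 to 1.07). The deposited table also carries the authors' log2 fold change with standard error, a test score and p-values. Dividing by the library step gave whole numbers for 100% of values (tolerance 1e-06), and read counts were recovered for the count tests, which serve as alternatives only; in 3 libraries the step lies so close to 1 that whole numbers there are weaker evidence of reads.

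Values were tested as log2(value + 1) where 3 or more of the 6 libraries reached 10 (14276 genes), with limma 3.58.1 in R 4.3.3 (line alone, intensity trend, robust), two-sided, Benjamini-Hochberg adjusted over all genes tested, threshold 0.05. Alternatives were the pseudocount (0.5, 5), the filter (none, 50), equal totals, quantile normalisation, the variance model, the replicate number as a block, edgeR 4.0.16, DESeq2 1.42.0 and leaving out each library. The pipeline was tested on simulated data. Replicates differed by far more than sampling noise (lowest chi-square per gene 23.9). Coordinates and exon lengths are from GENCODE M21 (GRCm38), joined by Ensembl identifier, and upstream sequences from RefSeq (GRCm38.p6; 32 of 37 genes matched). The members and lists were chosen with earlier results of these data known. Every member that passed the filter is named, with the 3 largest called effectors or partners per direction and list. Ntn3 was not matched in the table and is not analysed here.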

Additional observations from a re-analysis of the deposited data

How the results depend on the processing

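For the 22 genes tested, 350 comparisons of a gene with an alternative were made over 16 alternatives: 340 left the call and direction as they were, 3 lost a call, 7 gained one and 0 changed direction. The 3 losses were of Epha2 and the gains of Efna2, Epha1, Ephb3 and Robo1. Leaving out 1 library gave 4 to 4 ligands higher in 4T1, 3 to 4 ligands higher in 4TO7, 5 to 6 receptors higher in 4T1 and 2 to 4 receptors higher in 4TO7, the 4 without 4TO7 replicate 2; effectors and partners ranged from 14 to 20 and from 13 to 16, and all genes called from 5242 to 8064. With equal totals per sample the median of all genes moved from 0.03 to -0.10 (log2), and the members higher in 4T1 and 4TO7 remained 10 and 5 in number; with edgeR and DESeq2 they were also 10 and 5. The share of all calls that were higher in 4T1 was 51.2%, and 42.2% with equal totals. The labels show nothing shared by same-numbered libraries but the number, and whether they were handled together is not stated. Correlations of their deviations were -0.0135, 0.266 and 0.328 for numbers 1, 2 and 3. For numbers 2 and 3 the libraries of both lines correlated best with their own number, and for number 1 they did not. With the replicate block 7750 genes were called, against 6997 without it. Members then numbered 11 and 6, with Epha1 (limma adjusted p = 0.0287) and Robo1 (0.0257) added. Genes with few reads, such as Slit2 and Epha10, are limited by depth.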
